A study of Mus musculus with 4 samples.

Results

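The genes described here encode the protein folding machinery of the endoplasmic reticulum (ER): its HSP70 and HSP90 chaperones, lectin chaperones, J proteins, disulfide isomerases, thiol oxidases and prolyl isomerases. They were chosen by name, as 36 genes, and each was found in the authors' deposited table, in 37 of its 25572 loci. All 37 loci were among the 13320 that the authors tested. Of the 37, 33 carry 1 gene name and 4 list a member together with other genes. Txndc11 has 2 entries at the same coordinates, each counted here as a locus.

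Liver RNA was sequenced from 8-week-old C57BL/6J mice, with 2 libraries labelled wild type (WT), the controls for the knockout, and 2 labelled Ern1-LKO, a liver-specific knockout of Ern1. The promoter that drives the deletion, the exons removed and the sex of the mice are not stated in the labels. Levels are given in FPKM, fragments scaled to transcript length and to the mapped fragments of a library. The authors deposited 1 value per genotype, which hides the spread between the 2 libraries and leaves the read depth unknown. A gene is called here when the q-value in the authors' deposited table is under 0.05. The standard error (SE) of a log2 fold change is the one implied by the authors' test statistic. In bulk tissue, fewer cells of a type and less RNA per cell cannot be told apart.

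Proteins that hepatocytes secrete enter the ER unfolded. BiP, the HSP70 of the ER, binds them in cycles that J proteins start and nucleotide exchange factors end, lectin chaperones hold those that carry glycans, and disulfide isomerases, recharged by ERO1 oxidases, form and reshuffle their disulfide bonds. When unfolded proteins accumulate, IRE1α, the product of Ern1, splices Xbp1 mRNA, and the resulting factor XBP1s, together with ATF6, activates many folding genes. Hepatocytes carry a heavy secretory load, and the comparison asks how their transcripts differ when Ern1 is deleted.

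The targeted gene, Ern1, was listed at 21.4 FPKM for WT and 30.2 for LKO, with a log2 fold change of 0.50 (95% interval 0.13 to 0.86, q = 0.172 in the authors' deposited table). A gene-level FPKM includes exons that a deletion leaves in place, and the genotype labels cannot be checked from it. Xbp1 stood at 77.3 and 79.2 FPKM, a measure of total and not of spliced message. Liver identity was checked on hepatocyte markers: 8 measured loci summed to 30190 FPKM in WT liver and 29596 in LKO-labelled liver, and Alb is a failed estimate in the table.

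In LKO-labelled liver, 9 of the 37 folding loci (24.3%) fell and 0 rose. The background in the same table was 1.16% of all tested loci called lower, 1.58% called higher and 2.74% called in either direction. The genes that fell were Dnajb9, P4hb, Hspa13, Creld2, Sdf2l1, Ero1lb, Hyou1, Txndc5 and Dnajc3. Their LKO levels were between 0.363 and 0.655 of WT, and 5 of them fell at least 2-fold. They came from 4 of the 6 classes; no lectin chaperone and no prolyl isomerase was called. The chaperones that are most often used as markers of ER stress, Hspa5 and Hsp90b1, were not among them.

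Below the threshold the direction was mostly the same. In all, 30 of the 37 loci lay below WT, against 52.1% of all tested loci. Of the 28 loci that were not called, 21 lay below WT, and for 7 of these the unadjusted p was under 0.05: Manf's combined locus, Txndc11, Erp44, Pdia6, Ppib, Fkbp2 and Sil1. Altogether 16 of 37 loci lay lower at an unadjusted p under 0.05 and 0 lay higher, against 4.53% and 5.74% of all tested loci. Over the 37 loci the log2 fold changes had a median of -0.33, and over the 10926 tested loci that reached 1 FPKM in either genotype the median was -0.02. The genes were chosen with earlier results of these data known, so these counts describe them and test nothing.

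**Figure D1:**
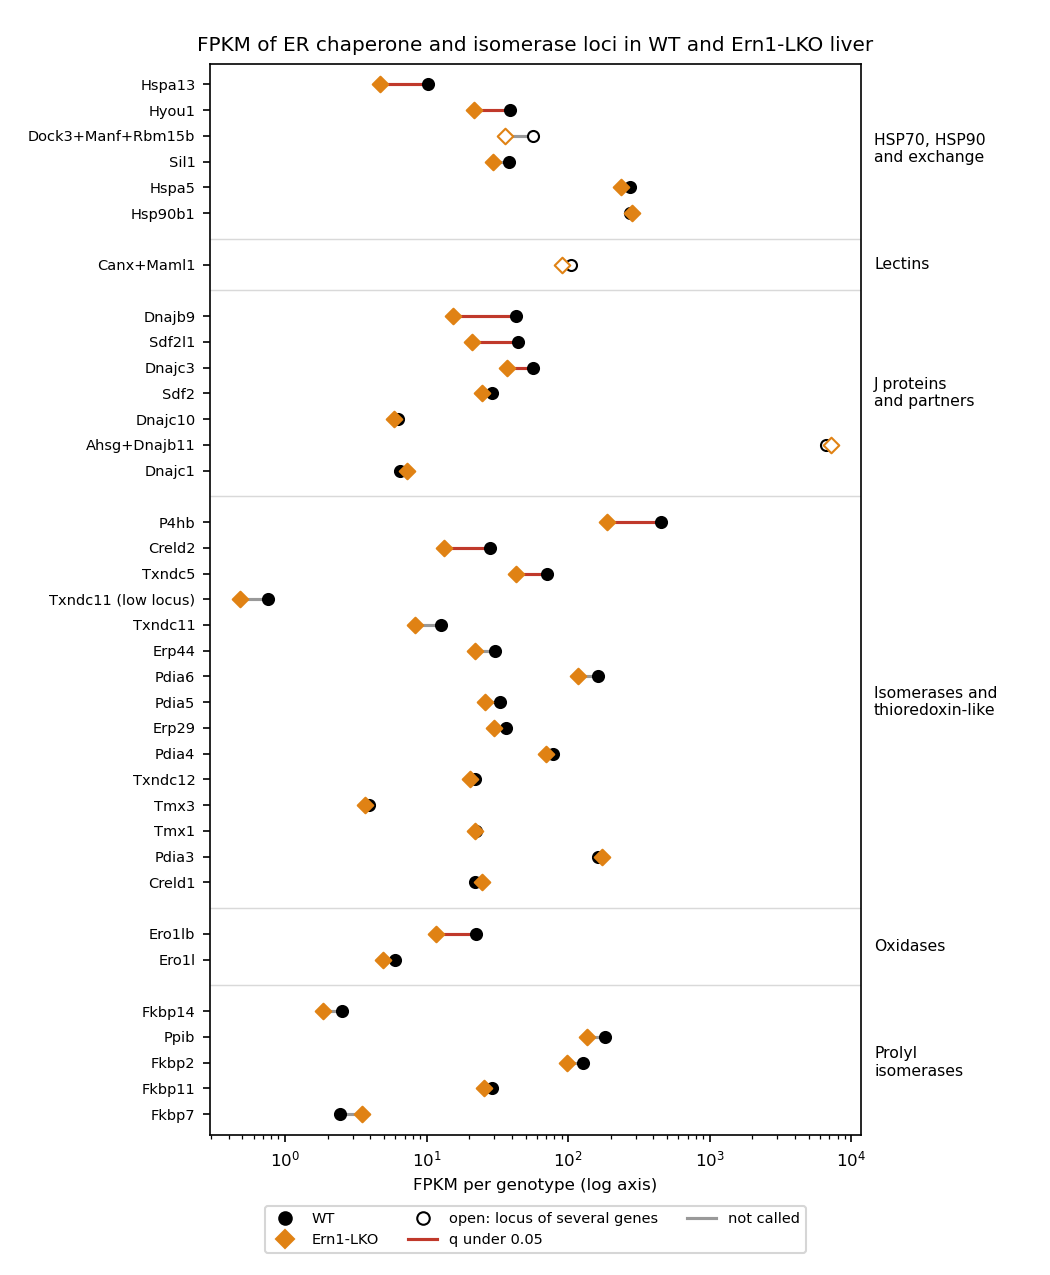
FPKM (log axis) of 36 of the 37 member loci in WT (black circles) and Ern1-LKO (orange diamonds), 1 authors' value per genotype, grouped by class; open symbols are loci that list several genes. Red lines join the 9 called loci, among them P4hb at 453 and 187 FPKM, while Hspa5, Hsp90b1 and Pdia3 have nearly coinciding symbols.

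Promoter windows show which members carry the elements through which ATF6 and XBP1s are known to act. The windows, from RefSeq on GRCm38.p6 (the build of mm10), run from 250 bases before to 50 after the annotated start. Of the 36 genes 30 had one, among them 7 of the 9 called, while Hyou1, Hspa13, Manf, Sil1, Erp29 and Tmx3 did not. In 22 of the 30 genes the bases after the start matched a GENCODE M21 transcript of that gene. For the rest no such match was found, and their windows may lie away from the main start. The ER stress response element (ERSE) was searched on both strands as CCAAT, any 9 bases, then CCACG. It was found in 8 of the 30 genes, which is 26.7%, against 0.137% of all 27025 genes with a window and 0.166% of 7831 genes that were tested, expressed and alone at their locus. The sites are shown because they occur in called and uncalled members alike. Each is read along the strand that holds CCAAT, with 15 bases on each side, and capitals mark CCAAT and, after it, CCACG.
Creld2, chr15:88819505-88819553, minus strand: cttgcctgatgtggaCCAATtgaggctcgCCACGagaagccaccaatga
Dnajc3, chr14:118937812-118937860, plus strand: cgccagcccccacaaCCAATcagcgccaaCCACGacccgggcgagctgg
Ero1lb, chr13:12565667-12565715, minus strand: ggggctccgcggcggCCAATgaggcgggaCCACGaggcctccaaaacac
Pdia6, chr12:17266476-17266524, plus strand: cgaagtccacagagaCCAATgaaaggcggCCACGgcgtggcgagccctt
Hspa5, chr2:34772010-34772058, plus strand: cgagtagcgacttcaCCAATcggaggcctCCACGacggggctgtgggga
Canx, chr11:50325785-50325833, minus strand: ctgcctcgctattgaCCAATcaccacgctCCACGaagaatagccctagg
Calr, chr8:84847060-84847108, plus strand: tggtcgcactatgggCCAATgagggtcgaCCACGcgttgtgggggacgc
Hsp90b1, first site, chr10:86705518-86705566, plus strand: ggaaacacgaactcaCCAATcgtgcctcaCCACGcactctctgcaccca
Hsp90b1, second site, chr10:86705623-86705671, minus strand: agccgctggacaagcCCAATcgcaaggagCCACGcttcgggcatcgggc

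Genes that fell were found with and without an ERSE. Of the 8 genes with one, 3 fell (Creld2, Dnajc3 and Ero1lb), and of the 22 without one, 4 fell (Dnajb9, P4hb, Sdf2l1 and Txndc5). Median log2 fold changes were -0.35 for genes holding it and -0.26 for the others, and their difference was not tested. In the medians by motif, genes at combined loci enter with the value of that locus. Hsp90b1, the ER form of HSP90, holds 2 ERSE sites and had a log2 fold change of 0.05. A further element, ERSE-II, searched as ATTGG, any base, then CCACG, was in 1 member, Dnajb11, and in 0.0444% of all genes. The core of the unfolded protein response element (UPRE), TGACGTG, was in 4 of 30 members (Hspa5, Txndc5, Txndc11 and Fkbp11), against 2.22% of all genes and 3.23% of expressed ones; of these 4, Txndc5 fell.

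The short motif CCACG, which also ends every ERSE and ERSE-II, was the most common. It was in 24 of 30 members, which is 80.0%, against 35.5% of all genes and 52.6% of the expressed ones. The 7 called genes with a window each held it, and of the 6 members without it 0 were called. Median log2 fold changes were -0.40 for genes holding CCACG and -0.07 for the others. Member windows were also richer in G and C, at a median of 64.0% against 60.8% in expressed genes, and the part of base composition in these shares was not tested. A match is a run of letters and not a bound site.

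The windows of Dnajb9 and P4hb, the members with the largest falls, hold CCACG but no ERSE, and that of Hspa5 holds both an ERSE and a UPRE core. All 3 are given 5′ to 3′ on the strand of the gene, with CCAAT in capitals, and likewise CCACG and the UPRE core, where either strand holds them.
Dnajb9, chr12:44210019-44210318, minus strand: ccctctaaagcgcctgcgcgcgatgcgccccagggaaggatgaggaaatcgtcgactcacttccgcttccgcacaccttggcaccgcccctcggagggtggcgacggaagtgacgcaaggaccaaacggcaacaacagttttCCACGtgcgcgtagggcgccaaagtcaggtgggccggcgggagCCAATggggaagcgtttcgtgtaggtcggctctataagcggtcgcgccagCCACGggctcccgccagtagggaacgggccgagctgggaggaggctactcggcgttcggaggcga
P4hb, chr11:120573204-120573503, minus strand: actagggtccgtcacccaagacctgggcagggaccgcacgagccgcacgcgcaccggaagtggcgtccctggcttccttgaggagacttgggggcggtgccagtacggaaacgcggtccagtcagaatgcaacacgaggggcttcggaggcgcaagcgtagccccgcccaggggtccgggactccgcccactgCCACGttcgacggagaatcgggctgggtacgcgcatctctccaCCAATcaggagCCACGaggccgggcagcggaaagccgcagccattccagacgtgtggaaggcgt
Hspa5, chr2:34771840-34772139, plus strand: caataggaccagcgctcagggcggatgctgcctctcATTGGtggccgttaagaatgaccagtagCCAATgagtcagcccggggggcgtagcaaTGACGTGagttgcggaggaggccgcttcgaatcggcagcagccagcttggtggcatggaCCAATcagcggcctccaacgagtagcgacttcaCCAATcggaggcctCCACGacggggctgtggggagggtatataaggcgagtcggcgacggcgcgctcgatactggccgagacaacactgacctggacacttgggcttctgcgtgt

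**Figure D2:**
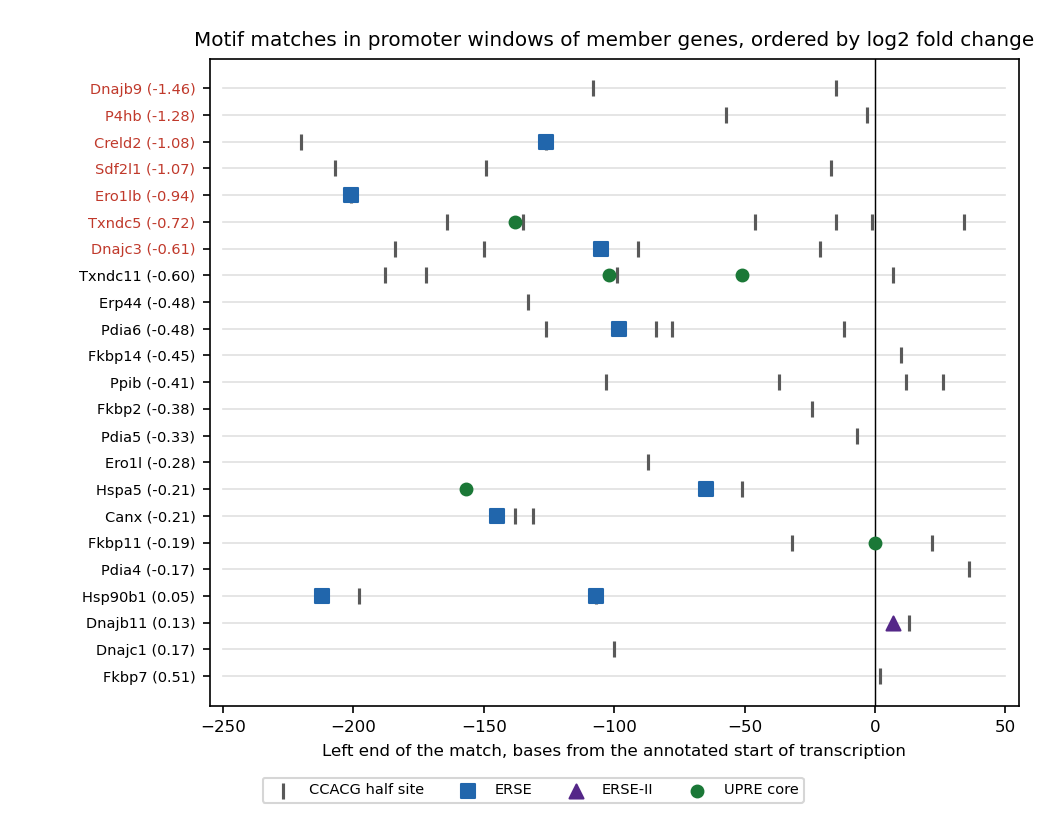
Positions of motif matches, in bases from each window's annotated start of transcription, for 23 of the 24 member genes with a match, ordered by log2 fold change (in brackets; called genes in red). Calr, which also holds an ERSE, is the gene not drawn. Canx and Dnajb11 are placed by the values of loci shared with other genes, and that of Dnajb11 cannot be read as its own. Among those drawn, ERSE matches (blue squares) lie at genes from Creld2 (-1.08) to Hsp90b1 (0.05), while CCACG (ticks) is spread over the whole order. The 6 members whose window holds no match are not drawn.

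Among the HSP70 and HSP90 proteins, their exchange factors and Manf, which was set in this class, 2 of 6 fell. Hspa13, an HSP70 relative that lacks a peptide-binding domain (mm10, GENCODE M21, as for the genes after it: chromosome 16, 75745431 to 75767104), fell from 10.3 to 4.65 FPKM, a log2 fold change of -1.14 (implied SE 0.17, q = 0.00343 in the authors' deposited table). Hyou1, a large HSP70 that exchanges nucleotide on BiP (chromosome 9, 44379490 to 44392369), fell from 38.8 to 21.6 FPKM, by 0.85 on the log2 scale (implied SE 0.17), at the same q. Per length, both messages were less abundant than that of BiP in each genotype.

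BiP and GRP94, the abundant members of the class, were not called. Hspa5, which encodes BiP, stood at 274 and 237 FPKM, a log2 fold change of -0.21 with a 95% interval of -0.55 to 0.12 from the implied SE. Hsp90b1, which encodes GRP94, stood at 273 and 282 FPKM, with an interval of -0.28 to 0.37. Both intervals exclude a 2-fold fall, but not a smaller one. Hyou1 thus went from 0.141 to 0.0912 of the BiP level.

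The rest of the class, Sil1 and the combined locus of Manf, lay below WT without a call. Sil1, the other exchange factor of BiP, stood at 37.997 and 29.4 FPKM (log2 fold change -0.37, q = 0.378 in the authors' deposited table). Manf, a secreted ER stress protein that binds BiP, shares its locus with Dock3 and Rbm15b, and the combined level was 56.6 and 35.7 FPKM (log2 fold change -0.67, implied SE 0.21, q = 0.0603 in the authors' deposited table). Which of the 3 genes carries that difference cannot be read from the table.

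Of the lectin chaperones, which bind glycans of folding proteins, calnexin could be read only with a neighbour. The locus of Canx (calnexin) and Maml1 stood at 105 and 90.3 FPKM, with a 95% interval of the log2 fold change of -0.53 to 0.11, and was not called.

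Of the 7 J proteins and their partners, 3 fell, and 1 of them showed the largest fall of all 36 genes. Dnajb9, a J protein of BiP that also acts on IRE1α as a negative regulator (chromosome 12, 44205559 to 44210326), fell from 42.5 to 15.4 FPKM, a log2 fold change of -1.46 (implied SE 0.17). It held place 23 from the bottom among the 10926 tested and expressed loci. Sdf2l1, a partner of J proteins (chromosome 16, 17130138 to 17132383), fell from 44.4 to 21.1 FPKM, with a log2 fold change of -1.07 (implied SE 0.18). Dnajc3, a J protein that holds substrates for BiP (chromosome 14, 118937976 to 118981697), fell from 56.5 to 37.0 FPKM, the smallest of the called falls (log2 -0.61, implied SE 0.16, q = 0.0117 in the authors' deposited table). The authors' locus for Dnajc3 runs to 119099434, past the end of the gene. Uggt2, a neighbour of Dnajc3 whose overlap with that locus was not checked, stood at 0.49 FPKM in both genotypes.

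The other J proteins were not called, and 1 could not be read. Sdf2, the paralog of Sdf2l1, stood at 28.9 and 24.6 FPKM, Dnajc10, a J protein with a disulfide reductase part, at 6.30 and 5.87, and Dnajc1, a membrane J protein, at 6.48 and 7.31. Dnajb11, the soluble J protein that works with Sdf2l1, shares its only locus with Ahsg, which encodes the abundant plasma protein fetuin-A. The combined 6599 and 7232 FPKM cannot be taken as a level of Dnajb11, so its response is not known here. Measured against BiP, Dnajb9 went from 0.155 to 0.0653 of the Hspa5 level and Sdf2l1 from 0.162 to 0.0892.

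**Figure D3:**
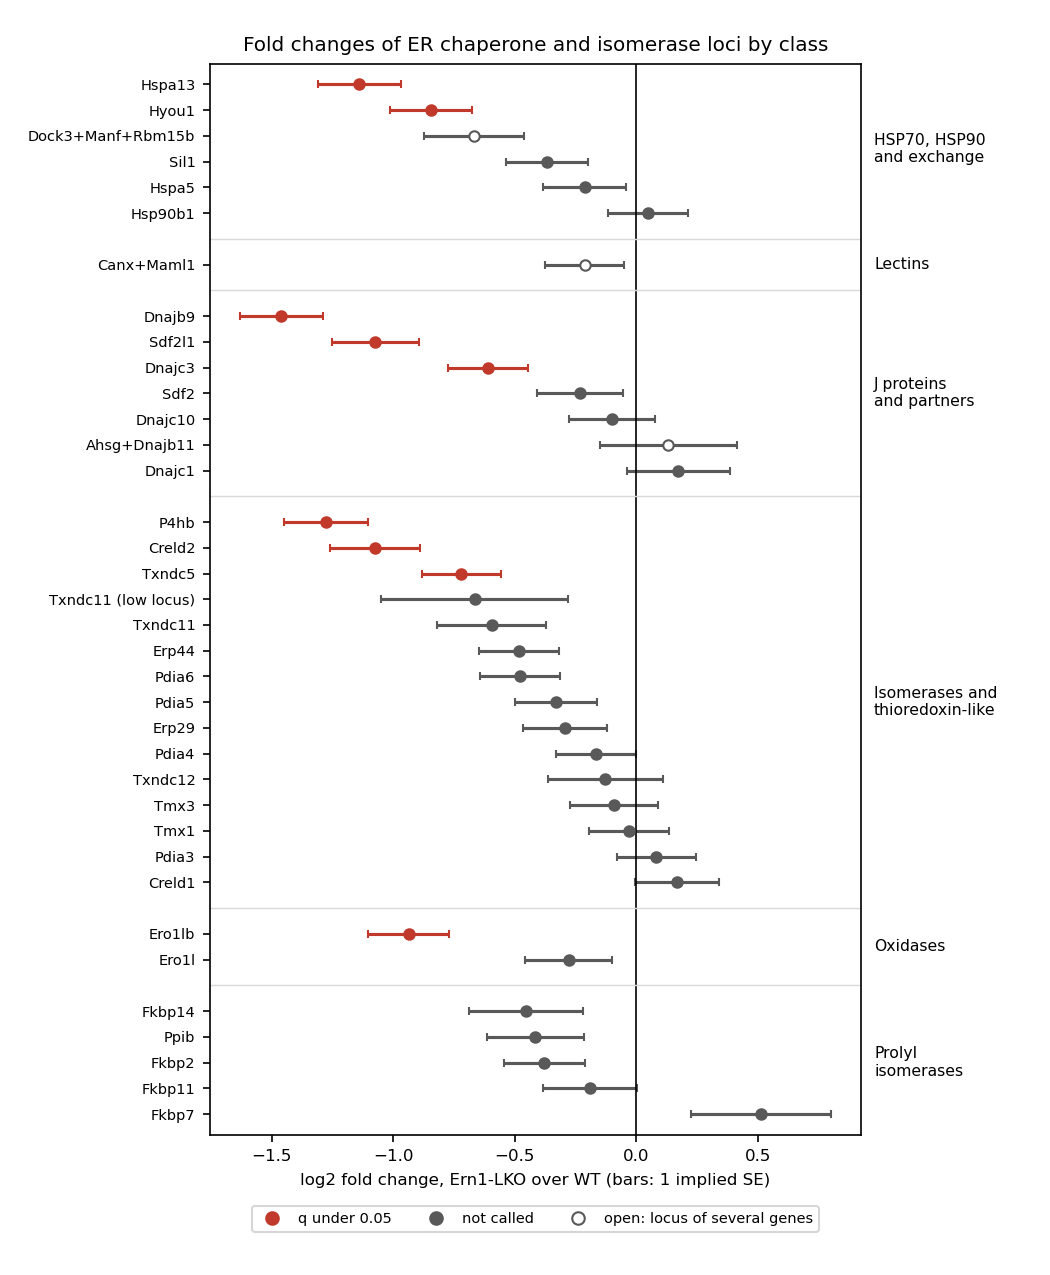
log2 fold change of Ern1-LKO over WT for 36 of the 37 member loci, by class, with bars of 1 implied SE; red points are called at q under 0.05 and open points are loci that list several genes. The called loci run from -1.46 (Dnajb9) to -0.61 (Dnajc3), the prolyl isomerases hold no red point, and 6 of the 36 points lie above 0.

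The disulfide isomerases and thioredoxin-like proteins numbered 14 genes at 15 loci, of which 3 fell and 13 lay below WT. P4hb, the protein disulfide isomerase itself and a subunit of both collagen prolyl 4-hydroxylase and the microsomal triglyceride transfer protein (chromosome 11, 120560298 to 120573253), fell from 453 to 187 FPKM. Its log2 fold change was -1.28 (implied SE 0.17), with a 95% interval of -1.62 to -0.94. Creld2, a secreted protein with isomerase-like cysteines (chromosome 15, 88819646 to 88826683), fell from 27.9 to 13.2 FPKM, by 1.08 on the log2 scale (implied SE 0.19). Txndc5, an isomerase with several thioredoxin domains (chromosome 13, 38500079 to 38528824), fell from 70.9 to 43.0 FPKM, by 0.72 (implied SE 0.16). All 3 stood at the table's q of 0.00343. Bmp6, a neighbour of Txndc5 whose overlap with it was not checked, stood at 2.05 and 2.37 FPKM.

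P4hb dominated the change in the amount of isomerase message. It made up 39.7% of the summed FPKM of the isomerase loci in WT and 24.6% in LKO-labelled libraries. In WT it stood at 2.77 times the level of Pdia3, the isomerase that works with calreticulin and calnexin, and in LKO-labelled libraries at 1.08 times. Pdia3 itself stood at 164 and 173 FPKM, with a 95% interval of the log2 fold change of -0.24 to 0.40. Without P4hb the isomerase loci summed to 688 FPKM in WT liver and 574 in LKO-labelled liver. Over all 33 single-gene loci of the 6 classes the sums were 2333 and 1729 FPKM, and P4hb gave 44.1% of that difference.

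Other isomerases lay between these extremes. Pdia6, which also binds BiP, stood at 164 and 117 FPKM (log2 fold change -0.48), and Erp44, which retains ERO1 oxidases and unassembled proteins in the early secretory pathway, at 30.6 and 21.9 (also -0.48). Both had q = 0.111 in the authors' deposited table, and their 95% intervals, -0.80 to -0.16 and -0.81 to -0.16, lay below 0. Txndc11, a thioredoxin-related membrane protein, stood at 12.5 and 8.30 FPKM at its main locus (log2 fold change -0.60, q = 0.181), and at 0.758 and 0.478 at its low one.

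The remaining isomerases had 95% intervals that crossed 0. Pdia5 (32.7 and 26.1 FPKM), the noncatalytic Erp29 (36.5 and 29.7), Pdia4 (78.7 and 70.1) and Txndc12 (22.003 and 20.2) lay below WT. The membrane isomerases Tmx1 (22.5 and 21.980) and Tmx3 (3.91 and 3.67) did too, by at most 0.09 on the log2 scale. Creld1, the membrane-bound paralog of Creld2, lay above WT at 22.1 and 24.8 FPKM.

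Of the 2 thiol oxidases, which pass electrons from isomerases to oxygen, 1 fell. Ero1lb, the beta form (chromosome 13, 12565874 to 12611396), fell from 22.5 to 11.7 FPKM, a log2 fold change of -0.94 (implied SE 0.17, q = 0.00343 in the authors' deposited table). Ero1l, the alpha form, stood at 6.00 and 4.95 FPKM (log2 fold change -0.28, 95% interval -0.63 to 0.07). The beta form remained the more abundant message, at 3.74 times the alpha form in WT and 2.37 times in LKO-labelled libraries.

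Paralogs were thus on different sides of the threshold in 3 pairs. The 95% interval of Creld2 (-1.44 to -0.71) does not meet that of Creld1 (-0.17 to 0.50), and that of Sdf2l1 (-1.42 to -0.72) does not meet that of Sdf2 (-0.58 to 0.12). The intervals of Ero1lb (-1.26 to -0.61) and Ero1l overlap slightly. The difference within a pair was not tested. The order of levels turned in 2 of the pairs: Creld2 went from 1.26 to 0.533 times Creld1, and Sdf2l1 from 1.54 to 0.857 times Sdf2.

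None of the 5 prolyl isomerases, which turn peptide bonds before proline, was called. Ppib, cyclophilin B, stood at 181 and 136 FPKM (log2 fold change -0.41, implied SE 0.20) and Fkbp2 at 128 and 98.3 (-0.38, implied SE 0.17), with q = 0.431 and 0.342 in the authors' deposited table. Fkbp14 (2.54 and 1.86 FPKM) and Fkbp11 (29.0 and 25.4), both ER-resident isomerases, lay below WT as well. Fkbp7 stood at 2.46 and 3.51 FPKM and had the highest log2 fold change of all members, 0.51, with a 95% interval of -0.05 to 1.08. Over single-gene loci the class medians were -0.38 for the prolyl isomerases, -0.33 for the isomerases and thioredoxin-like proteins, -0.42 for the J proteins, -0.37 for the HSP70 and HSP90 class and -0.61 for the oxidases, and no lectin chaperone has a locus of its own. With combined loci kept, the J protein median was -0.23 and that of the HSP70 and HSP90 class -0.52.

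The genes that fell spanned a wide range of abundance. Among the 5 single-gene loci of highest mean FPKM (P4hb, Hsp90b1, Hspa5, Pdia3 and Ppib) 1 was called, and among the first 10 it was 3. WT levels of the called genes ran from 10.3 to 453 FPKM, and the implied SE of all member loci from 0.16 to 0.39, with a median of 0.17. The low Txndc11 locus had the widest SE of the members.

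**Figure D4:**
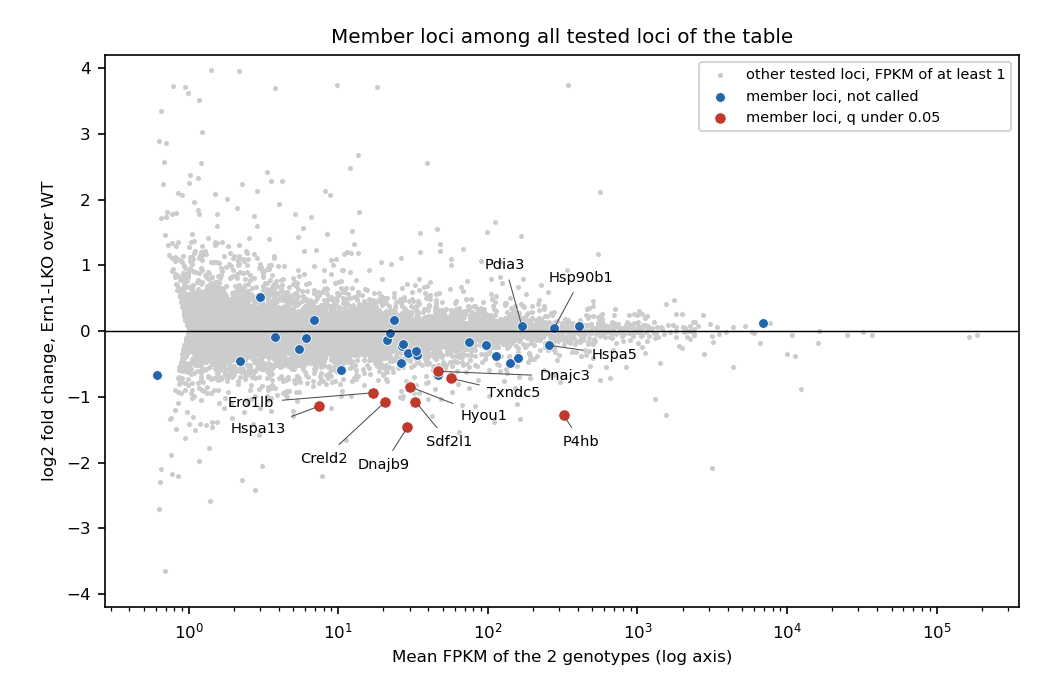
log2 fold change against the mean FPKM of the 2 genotypes (log axis) for tested loci with an FPKM of at least 1 (grey, 10922 shown and 4 beyond the axis), with called member loci in red and others in blue. The called genes lie along the lower edge of the cloud at moderate and high FPKM, and Hspa5, Hsp90b1 and Pdia3 lie near 0.

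Beyond the 36 genes, the wider folding pathway was read from 6 lists of 66 genes, of which 58 loci were tested. In these lists 4 loci fell and 0 rose, and 9 lay lower and 4 higher at an unadjusted p under 0.05. Of the 58 loci, 39 lay below WT, and the median on the log2 scale was -0.09. Of all tested loci, 1.16% were called lower, 4.53% lay lower and 5.74% higher at that unadjusted p, and 52.1% lay below WT. In the lectin cycle, which trims and re-glucosylates glycans, 2 of 10 genes fell and all 10 lay below WT (median -0.33). These were Edem2, which helps trim mannose from misfolded glycoproteins (26.6 to 15.8 FPKM), and Uggt1, the glucosyltransferase that senses misfolding (10.8 to 7.14). Among 13 other thioredoxin-fold and redox loci 1 fell, Prdx4, the ER peroxiredoxin that also oxidises isomerases (86.7 to 56.3 FPKM).

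Each of the remaining lists of these 6 held at most 1 call, and they are not limited to proteins of the ER lumen. Of 11 calcium-binding and other lumen proteins 1 fell, Nucb2, from 2.39 to 1.06 FPKM, while Rcn2 and Rcn3 lay higher at an unadjusted p under 0.05 and Cnpy3 lower. None of 8 other J proteins and translocon partners was called, with Dnajc22 at 87.8 and 76.2 FPKM and Sec62 at 44.3 and 42.1, and 1, Sec63, lay lower at an unadjusted p under 0.05. None of 8 other prolyl isomerases and hydroxylases was called (0 with an unadjusted p under 0.05), with Fkbp8 at 139 and 135 FPKM and Plod1, a collagen lysyl hydroxylase, at 16.2 and 19.9; their median was 0.08. Among 8 client-specific chaperones none was called, with Mttp at 85.3 and 73.4 FPKM and the combined locus of Tapbp at 50.9 and 53.9. In that list 1 gene, the collagen chaperone Serpinh1, lay higher at an unadjusted p under 0.05, at 5.53 and 8.30 FPKM (log2 fold change 0.59, q = 0.0827 in the authors' deposited table). Genes named for an unadjusted p were chosen after their values were seen.

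In chaperones of the same families in the cytosol the single call was a rise. Of 19 genes, Fkbp5, a prolyl isomerase induced by glucocorticoids, rose from 6.30 to 18.2 FPKM, and 0 fell. Their median log2 fold change was -0.06, with Hspa8, the constitutive HSP70, at 528 and 586 FPKM and Ppia, cyclophilin A, at 1141 and 1128. Of the 19, 14 lay below WT, 2 of them at an unadjusted p under 0.05. Among 7 tested genes that signal ER stress 1 fell, Eif2ak3, which encodes PERK (4.58 to 2.61 FPKM). Of these 7, 4 lay lower at an unadjusted p under 0.05, and 1, the targeted gene Ern1 itself, lay higher. Atf6 stood at 11.9 and 9.43 FPKM and Atf4 at 67.5 and 46.9, neither called. Whether the members differ from these lists was not tested.

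**Figure D5:**
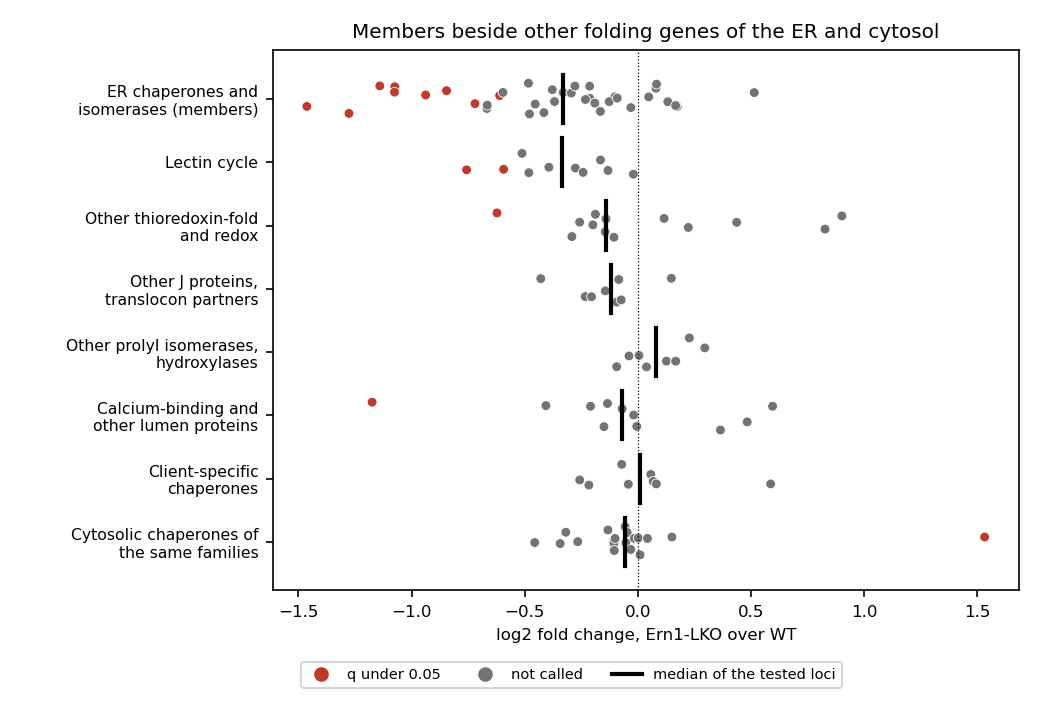
log2 fold change of Ern1-LKO over WT for tested loci of the member genes and of 7 further lists of folding genes, with called loci in red and a black line at each median. The members and the lectin cycle have medians near -0.33, the cytosolic chaperones -0.06, where Fkbp5 is the lone red point at 1.53.

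Markers of other cells moved as follows, and their part in these falls was not tested. Pancreatic acinar genes, from a tissue rich in ER, lay below WT at 15 of 18 loci, and 6 fell. Of the 18, 13 were listed at 0 in LKO-labelled libraries only, and Prss1 and Amy2a5 at 0 in both genotypes. Over the whole list the sums were 56.8 and 60.8 FPKM, most of it Cela1, which stood at 46.4 and 58.5 FPKM. Without Cela1 and Cela2a, the 2 loci of highest level in the list, acinar genes summed to 7.37 FPKM in WT liver and 0.501 in LKO-labelled liver, beside sums of 2333 and 1729 FPKM over the single-gene member loci. Plasma and B cell markers summed to 62.3 and 64.7 FPKM, Kupffer cell markers to 338 and 358, and endothelial markers to 82.9 and 89.8. Plasma and B cell markers lay above WT at 3 of 9 loci and below at 5. Kupffer cell markers lay above WT at 9 of 10 loci. The exception was the combined locus of Cd68 and Eif4a1, at 163 and 150 FPKM. Endothelial markers lay above WT at 6 of 7 loci, and 1 of them, Vwf, was called higher. Bile duct markers summed to 40.7 and 34.9 FPKM, most of it Spp1 at 37.2 and 30.3, while the other 4 of the 5 loci lay above WT. Stellate and fibroblast markers lay above WT at 9 of 9 loci, from a sum of 61.3 to 92.7 FPKM, and 4 of them rose (Col1a1, Col1a2, Col3a1 and Acta2). Adipocyte markers lay above WT at 6 of 6 loci, from a sum of 2.0003 to 14.6 FPKM, and 1 rose, Retn.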

How the data were processed

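Liver RNA-seq of 2 WT and 2 Ern1-LKO libraries was compared. The submitters' processing notes name mm10, Cufflinks 2.2.1, TopHat2 2.0.14, FastQC 0.11.3 and bcl2fastq, without their roles. Annotation, strand use and scaling between libraries are not given there. Per the file headers, the table that the authors deposited has 1 FPKM per genotype, the log2 fold change, a test statistic (a signed score), a p-value and a q-value. Because values are pooled per genotype, no test across libraries was run, the depth is unknown, and no counting interval was computed. Its smallest p is 5e-05.

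Members were matched by name, with combined loci kept. The implied SE divides the size of the log2 fold change, multiplied by ln 2, by the size of the statistic. The z it gives, over that of the deposited p, had a median of 1.03 over 29 member loci. The 8 called loci at the smallest p were left out of this check. A ratio above 1 means intervals slightly narrower than the deposited p would give. Intervals are 1.96 SE on each side. Gene coordinates are from GENCODE M21, 1-based.

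Every member is accounted for, with values for the called ones and for the most abundant and most changed of each class, and in other lists for the called genes or else the 2 of highest mean FPKM. Members and lists were chosen with earlier results of these data known. Protein features were not analysed here, and the level of 1 combined locus is not reported here. Calling from the implied SE with adjusted p-values, and the motif search, were tested on simulated data. Alternatives were a stricter q, a 2-fold minimum, FPKM minimums of 1 and 5, added pseudocounts of 1 and 0.1, centring and leaving out combined loci. Computations used pandas 2.3.3 and numpy 2.4.6 under Python 3.11.15, with scipy 1.17.1, and plots matplotlib 3.10.9.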

Additional observations from a re-analysis of the deposited data

How the results depend on the processing

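The number of member loci that fell was 9 and ranged from 5 to 10 over 7 alternatives, with 0 rises in each, and the members' median ranged from -0.37 to -0.29. Of the 9 called members, 5 (Dnajb9, P4hb, Hspa13, Creld2 and Sdf2l1) were called under all 7. Requiring a 2-fold change left 5 members, 1 of the HSP70 and HSP90 class and 0 oxidases, with 58 loci lower and 107 higher overall and 0 calls in the lectin cycle, the redox list and the signalling genes. At q under 0.01, 97 loci were lower and 124 higher, with 1 call in the lectin cycle and 0 in the redox list; Dnajc3 was lost here and, with Ero1lb, Txndc5 and Hyou1, under the 2-fold minimum. With an FPKM of at least 5, 109 loci were lower and 99 higher, against 154 and 211 in the main setting, and the calcium-binding and signalling lists had 0 calls. With log2 fold changes centred (by a median of -0.02), 1 client-specific chaperone was called, Serpinh1, as higher. In the normal approximation without centring, chosen after seeing the data, 2 signalling genes were called. In both of these settings the combined locus of Manf passed the threshold. Without combined loci the J protein median was -0.42, as the locus shared with Ahsg dropped out. No other cause was tested. No paired analysis was possible because each genotype has a single deposited value; a fit in limma with or without the replicate block, and leaving out each library, were not run.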

Other observations

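Beside the 36 members, 29 further genes with a promoter window hold an ERSE. Of these, 8 were tested and reached an FPKM of at least 1. Among the 8, 2 were called lower and 7 lay below WT (median -0.28 on the log2 scale). Of all tested loci, 1.16% were called lower and 52.1% lay below WT, and the median of those reaching 1 FPKM was -0.02. Whether the 8 differ from that background was not tested. Acacb, which makes malonyl-CoA at mitochondria, fell from 12.033 to 7.08 FPKM, and Xlr3a, which has near-identical copies that make its value uncertain, fell from 6.91 to 2.99. Syvn1, the ubiquitin ligase of ER-associated degradation, stood at 29.8 and 23.9 FPKM without a call, and Derl3, of the same pathway, was the one above WT, at 2.61 and 3.28. These genes were chosen after their values were seen.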
